A study of Mus musculus with 6 samples.

Results

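The endothelial cells (ECs) of cluster 15 were the 1259 cells that the authors' cell table assigned both to the manual cell type of ECs and to cluster 15 of their clustering, out of 11433 ECs and 58794 annotated cells. They came from orthotopic liver tumors of the murine hepatocellular carcinoma (HCC) line H22, grown in wild-type male C57BL/6J mice obtained at 8 weeks of age. The 3 mice of the stress group had gone through 21 days of chronic unpredictable mild stress before tumor implantation, and the 3 control mice received the same tumor cells without stressors. Each mouse gave 1 droplet library of dissociated tumor tissue, in which unique molecular identifiers (UMIs) count captured RNA molecules. The cluster held 34, 104 and 81 cells of control mice 1 to 3 and 176, 450 and 414 cells of stress mice 1 to 3. These numbers are given as membership only and were not compared between the groups, since the cluster was formed from the expression of the same cells. The 6 libraries held between 149558935 and 187728350 UMIs in annotated cells. Per the matrix headers, Cell Ranger 9.0.0 counted all control samples whereas version 7.1.0 counted all stress samples, and hence program version and stress cannot be told apart. Of the cluster 15 cells, 19 had a barcode that was also annotated in another library, and no barcode occurred in cluster 15 of more than 1 library.

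The tumor-bearing liver holds several kinds of ECs. Sinusoidal ECs line the specialised capillaries of the lobule, clear material from blood through scavenger receptors such as stabilins and take up immune complexes through Fcgr2b, whereas ECs of larger or activated vessels carry leukocyte adhesion molecules such as the selectins and Vcam1. The messenger RNA of a living cell is spread over nucleus and cytoplasm. Long primary transcripts and RNAs such as Malat1 and Neat1 reside in the nucleus, while messages for ribosomal proteins are short, abundant and mostly cytoplasmic. Hemoglobin is made by erythroid cells, from beta chains (Hbb-bs, Hbb-bt) and alpha chains (Hba-a1, Hba-a2).

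The working description of cluster 15 as hemoglobin-bearing did not hold at the level of cells. Of the 1259 cells, 11 carried any UMI of Hbb-bt, Hbb-bs, Hba-a1 or Hba-a2, a share of 0.874% (exact binomial 95% confidence interval 0.437 to 1.56%, counting error only). The cluster is therefore called by its cluster number and its shallow depth here. A single cell of stress mouse 3 carried 2253 hemoglobin UMIs among its 5073 UMIs, and a single cell of stress mouse 2, called a doublet, carried 1477 among 5758. Each of the other 9 cells carried 1 UMI. In summed form the cluster held 0, 0 and 1 hemoglobin UMIs in control mice 1 to 3 and 0, 1483 and 2255 in stress mice 1 to 3. The median cell had none in every mouse.

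**Figure D1:**
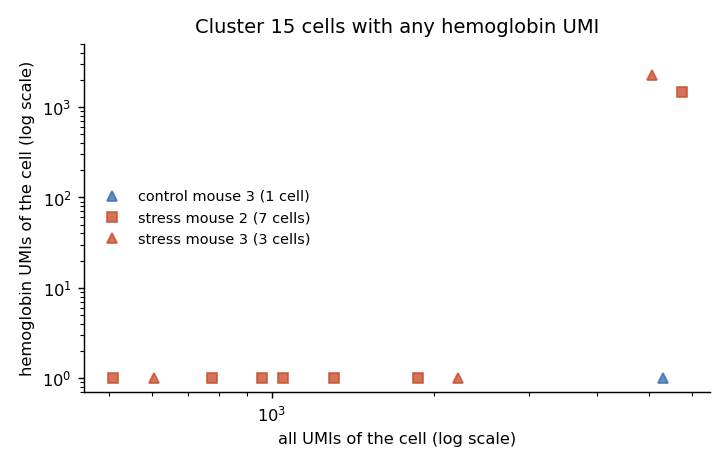
The 11 cluster 15 cells with any hemoglobin UMI, by all UMIs of the cell (x axis, log scale) and hemoglobin UMIs of the cell (y axis, log scale), with color for the group and shape for the mouse. The cells with 2253 and 1477 hemoglobin UMIs stand apart, and the other 9 lie at 1 UMI.

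Cells with many hemoglobin UMIs were found in other EC clusters as well. With a bound of 20 UMIs, 9 cells of cluster 2, 6 cells of cluster 8 and 1 cell of cluster 16 reached it, against 2 in cluster 15. Over all other ECs, 178 of 10174 cells (1.75%, 1.504 to 2.02%) had a hemoglobin UMI, at a median depth of 4847.5 UMIs against 1212 in cluster 15. In tumor cells, which should not make hemoglobin, the share was 3.23% at a median of 27716 UMIs. When every cell was thinned at random to 500 UMIs, the share was 0.635% (0.275 to 1.25%) in cluster 15, 0.324% (0.223 to 0.455%) in the other ECs, 0.256% in monocytes and 0.0472% in tumor cells. The intervals of cluster 15 and the other ECs overlapped. They hold counting error only, over cells pooled from all mice, so this overlap is no comparison of the 2 populations. The 8 cluster 15 cells behind this share came from stress mice 2 (5 of 450 cells) and 3 (3 of 414), and the other 4 mice had none. The erythroid genes other than globins, a list of 16 genes, took 0.0150 to 0.0227% of the equal-depth UMIs of cluster 15 across mice and 0.0177 to 0.0282% of those of the other ECs. The embryonic and minor globins had no UMI in either.

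Among the hemoglobin genes, Hbb-bt made up 21.9% of the beta-chain UMIs of cluster 15 in stress mouse 3 and 24.6% in stress mouse 2. In the other annotated cells of these mice it made up 7.47% and 20.3%. Nearly all of the cluster 15 UMIs behind these shares came from 1 cell per mouse. In the other ECs of stress mouse 3, all but 42 of 1653 hemoglobin UMIs lay in 2 cells, and in stress mouse 2 all but 60 of 2309 lay in 3 cells. These shares thus set a few cells against each other, and the control mice had no beta-chain UMI in cluster 15. Stress and control mice were therefore not compared for this share.

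Cluster 15 cells were shallow. The median was 905, 858 and 1395 UMIs per cell in control mice 1 to 3 and 1072.5, 1142.5 and 1456.5 in stress mice 1 to 3. Cluster 2, the most numerous EC cluster, had medians of 3300 to 5853, and clusters 8 and 18 lay in the same range or above. Every cell had at least 500 UMIs. A few deep cells were the exception, since 35 cells exceeded 5000 UMIs, with a median of 21812, and of these 26 were called doublets by Scrublet. Among the 1224 cells at or below 5000 UMIs, 9 were called doublets. The 35 deep cells carried 79.2%, 56.5% and 39.2% of the summed UMIs of the cluster in control mice 1 to 3 and 42.8%, 29.6% and 9.49% in stress mice 1 to 3. The share was thus larger in control mice 1 and 2 than in any stress mouse, while control mouse 3 lay below stress mouse 1. The 6 H22 tumor cell markers took 0.0947% of the UMIs of the deep cells, against 0.00829% of those of the 1224 others. For this reason the description below weights cells equally, at 500 UMIs each.

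**Figure D2:**
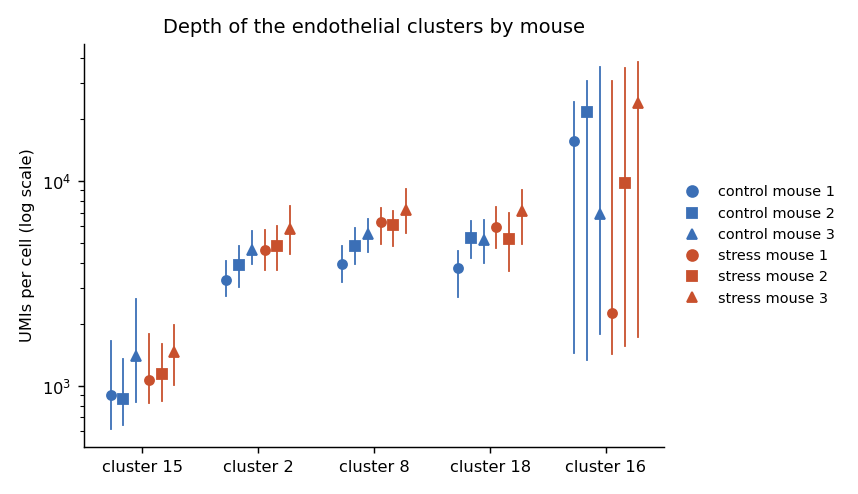
UMIs per cell (y axis, log scale) in 5 EC clusters (x axis), with 1 point per mouse at the median and a line from the lower to the upper quartile of cells. All 6 medians of cluster 15, at 858 to 1456.5, lie below every median of the other clusters, and cluster 16 spans shallow and deep cells.

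The cells carried an endothelial profile. They were chosen by the authors' EC label, which was given from lineage markers. The marker shares below thus describe the cells and are no separate test of their identity. At 500 UMIs, 64.8% of cluster 15 cells had UMIs of at least 3 of 14 pan-endothelial markers, against 73.5% of the other ECs. In clusters 2, 8 and 18 pooled, the share was 80.1% (74.7 to 83.5% per mouse). It was 0.0135% in tumor cells, 0.304% in monocytes and 0.257% in dendritic cells. Per mouse the share in cluster 15 was 52.9%, 50% and 74.1% in control mice 1 to 3 and 73.3%, 60.4% and 68.8% in stress mice 1 to 3. Cdh5, the adhesion protein of endothelial junctions, was at 885 to 1259 CPM (the usual scaling of a gene's UMIs to a common library total) in control mice and 644 to 909 in stress mice, against 936 to 1159 and 718 to 919 in the other ECs. Its mean log2 ratio between cluster 15 and the other ECs was -0.02 ± 0.12 (SD, n = 6 mice). Pecam1, another adhesion protein of endothelial contacts, had a ratio of -0.15 ± 0.21, and Esam, a junction protein, of 0.03 ± 0.12. These 3 genes had mice on either side of 0. The 14 genes together took 0.662 to 0.959% of UMIs in cluster 15 and 0.841 to 1.05% in the other ECs, and were lower in cluster 15 in all 6 mice. In clusters 2, 8 and 18 they took 0.913 to 1.15%.

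Over the pan-endothelial list, 2 of 10 genes that reached 200 CPM were lower in all 6 mice and none was higher in all 6, where of all 1148 genes at this level 35.5% were lower and 26.4% higher in all 6 mice. The clusters were defined on these same cells, so these counts are descriptions without a test. The sinusoidal genes differed among themselves. Clec4g, a lectin of liver sinusoidal ECs, was higher in cluster 15 in all 6 mice, at 1874 to 3086 CPM against 973 to 1721, a log2 ratio of 0.72 ± 0.21. Stab2, the stabilin that takes up hyaluronan, was lower in all 6 mice, at 423 to 741 CPM against 1351 to 2330, a ratio of -1.36 ± 0.32. Mrc1, the mannose receptor, had a ratio of -0.46 ± 0.16, whereas Fcgr2b, the Fc receptor of sinusoidal ECs, had 0.06 ± 0.22. Of the 13 sinusoidal genes at this level, 1 was higher and 5 were lower in all 6 mice.

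Several genes of activated or larger vessels were lower in cluster 15 than in the other ECs pooled. Of 6 such genes at 200 CPM or more, 3 were lower in all 6 mice and 3 were mixed, among them Plvap of the endothelial diaphragms (0.29 ± 0.48) and Ly6a (0.11 ± 0.26). The list took 0.172 to 0.395% of UMIs in cluster 15, 0.196 to 0.387% in cluster 2 and 0.527 to 0.899% in cluster 8. Selp, the P-selectin that captures rolling leukocytes, was at 59 to 494 CPM against 729 to 1605, with a log2 ratio of -1.88 ± 1.005. Vcam1, a leukocyte adhesion molecule, had a ratio of -1.40 ± 0.54 and Icam1, another such molecule, of -1.57 ± 0.23, each lower in all 6 mice. Of the VEGF and angiopoietin receptors, 4 of 7 genes at 200 CPM or more were lower in all 6 mice. They included Flt1, a VEGF receptor, with -0.68 ± 0.24, and the coreceptor Nrp1 with -0.93 ± 0.39, while the main signalling receptor Kdr had -0.22 ± 0.21 and Flt4, the VEGF-C receptor, 0.02 ± 0.22. Jam2, a junctional adhesion molecule, was lower in all 6 mice, with a ratio of -0.32 ± 0.24. Of the 4 junction and adhesion genes at this level, 3 were lower in all 6 mice. These list counts stand beside the 35.5% of all 1148 genes at this level that were lower in all 6 mice.

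Markers of other cells were low in both populations. Macrophage and monocyte genes summed to 0.0412 to 0.138% of UMIs in cluster 15 and 0.0504 to 0.0879% in the other ECs, with 5 of the 6 mice higher in cluster 15. The complement gene C1qb, made by macrophages, was at 176 to 617 CPM against 168 to 342. Hepatocyte genes took 0.00192 to 0.0198% against 0.00140 to 0.00535%, and platelet and megakaryocyte genes 0.0198 to 0.0362% against 0.0122 to 0.0277%, each list higher in cluster 15 in all 6 mice. No hepatocyte gene reached 200 CPM. Alb (29.6 CPM on average in cluster 15) was lower there in 3 mice and Apoa2 (14.6) in 4, while Fga was lower in 1 and Fgb in 2. Of the platelet list, the 1 gene at 200 CPM or more had mice on either side. Pf4 (22.5 CPM on average in cluster 15) and Ppbp (4.44) were lower in 3 and 4 mice. Neutrophil genes took at most 0.0148% against 0.00535 to 0.0261%, and H22 tumor cell markers 0.00933 to 0.0412% against 0.00919 to 0.0197%. In clusters 2, 8 and 18 the H22 markers took 0.00440 to 0.0120%, below cluster 15 in all 6 mice. T and NK cell, B cell and stellate cell genes took at most 0.00577%, 0.00114% and 0.00247% of UMIs of cluster 15. Of the defining markers, Ms4a1 of B cells and Lrat of stellate cells had no UMI in the thinned cluster 15 cells. Free RNA in droplets was not measured separately, and its part in these low levels was not tested.

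Short and long genes differed from the other ECs in opposite directions. Ribosomal protein messages took 17.4%, 20.03% and 16.8% of the equal-depth UMIs of cluster 15 in control mice 1 to 3 and 18.4%, 15.6% and 18.4% in stress mice 1 to 3. In the other ECs they took 7.99 to 11.2%. Of the 74 ribosomal protein genes at 200 CPM or more, 71 were higher in cluster 15 in all 6 mice and none was lower in all 6, with a median log2 ratio of 0.84 beside -0.15 over all genes at this level. Of the 15 genes with the highest ratios, 11 were ribosomal protein genes. Rps3 of the small ribosomal subunit, at chr7:99477896-99483738, was at 4344 CPM on average against 2090 (log2 ratio 1.04 ± 0.23), and Rpl23 of the large subunit at 5710 against 2850 (0.99 ± 0.08). Coordinates here and below are those of GRCm38 in GENCODE M21. The highest ratio belonged to Ifitm2, an interferon-induced membrane protein, at 3568 CPM against 1634 (1.10 ± 0.11). The polyubiquitin gene Ubb had 1.002 ± 0.24, and Pfdn5, a subunit of the chaperone prefoldin, had 0.99 ± 0.14. The spans of these 15 genes in the genome, introns included, ran from 1.15 to 25.2 kb.

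The 10 genes with the lowest ratios were of the opposite kind. Of these, 9 spanned more than 100 kb, with a median of 465.1 kb over all 10. Lrmda, whose annotated span chr14:22019712-23056085 exceeds 1 Mb, was at 160 CPM on average in cluster 15 and 1256 in the other ECs (log2 ratio -2.87 ± 1.01, lower in all 6 mice). Prkg1, the cGMP-dependent protein kinase, spans 1201 kb and was at 134 CPM against 706 (-2.29 ± 0.77). B3galt1, a galactosyltransferase, had -2.59 ± 0.95, Arl15, a small GTPase of the ARF-like family, -2.53 ± 0.79, and Aff3, a nuclear factor of transcription elongation, -2.36 ± 0.51. Fbxl7, Zswim6, Fbxl17 and Psd3 had ratios between -2.51 and -2.28. The short gene among the 10 was Hspa1b, an inducible heat shock protein, at 59 to 346 CPM against 287 to 1148 (-2.34 ± 0.72).

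Across 4350 genes at 50 CPM or more, the ratio decreased step by step with genomic span. Genes of the mitochondrial chromosome were left out. Also left out were Cmss1, Lars2, Gphn, Cdk8, Camk1d and Gm19951, described below as higher in stress mice. The median log2 ratio per mouse was 0.40 to 0.57 for genes under 3 kb and 0.27 to 0.34 for those of 3 to 10 kb. It was 0.01 to 0.10 between 10 and 30 kb, -0.42 to -0.27 between 30 and 100 kb, -0.90 to -0.63 between 100 and 300 kb and -1.44 to -0.86 above 300 kb. In the last class, 83.3% of the 162 genes were lower in all 6 mice and none was higher in all 6. Without ribosomal protein genes the median for genes under 3 kb was 0.30 to 0.50. Spearman's rho between ratio and span was -0.67 to -0.44 in single mice, and between ratio and exonic length of the longest transcript -0.57 to -0.37. Both are descriptions across genes, which are not independent replicates, and all genes share the same libraries. Genes over 100 kb together took 6.86 to 10.8% of the UMIs of cluster 15 and 18.2 to 21.99% of those of the other ECs. Here and below, this share also leaves out the 6 genes named above.

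**Figure D3:**
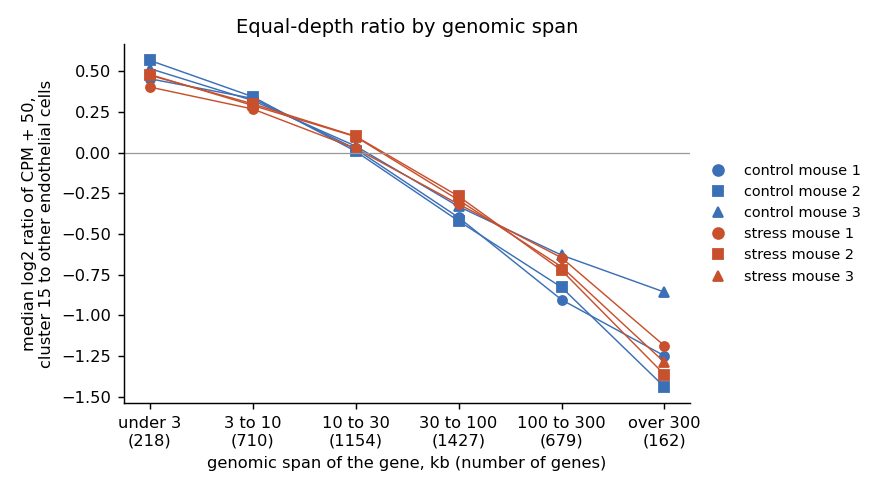
Median log2 ratio of CPM + 50 between cluster 15 and the other ECs at 500 UMIs per cell (y axis), by genomic span of the gene in kb with the number of genes (x axis), 1 line per mouse. All 6 lines start above 0 for genes under 3 kb and end between -1.44 and -0.86 above 300 kb.

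Nuclear-retained RNAs were lower in cluster 15 as well. Malat1 was at 4529, 1115 and 4741 CPM in control mice 1 to 3 and 2477, 1542 and 1536 in stress mice 1 to 3, where the other ECs had 4837 to 8449. At 500 UMIs, 58.8%, 22.1% and 66.7% of control cells (mice 1 to 3) held at least 1 Malat1 UMI. The stress cells did so in 47.7%, 34.2% and 26.6%. In clusters 2, 8 and 18 pooled, the share was 83.9 to 93.9%. Neat1, the RNA scaffold of nuclear paraspeckles, had a log2 ratio of -1.55 ± 0.55 and Malat1 of -1.65 ± 0.73, each lower in all 6 mice. Mitochondrially encoded RNA took 2.53 to 5.20% against 2.35 to 4.16%, higher in cluster 15 in 5 of the 6 mice.

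The shallow cells of other EC clusters were described beside those of cluster 15, under a shared ceiling that does not match depth exactly. In cells of at most 2000 UMIs, 997 in cluster 15, the per-mouse median share of ribosomal protein UMIs was 15.7 to 19.6% and that of genes over 100 kb was 6.98 to 9.82%. In the 186 such cells of clusters 2, 8 and 18, counting the 5 mice with at least 10 of them, these shares were 6.34 to 13.3% and 15.2 to 21.01%. In the 456 such cells of cluster 16, they were 3.53 to 6.42% and 21.9 to 26.4%, and nuclear-retained RNA was at 0.608 to 1.81% against 0 to 0.292% in cluster 15. The shallow cells of cluster 16 thus had the reverse profile, with few ribosomal and many long-gene UMIs. Its 661 cells over 5000 UMIs had medians of 18.9% and 9.94%, near those of cluster 15. Of all cluster 16 cells, 32.5 to 61.2% per mouse were called doublets, and H22 markers took 0.0459 to 0.0922% of their UMIs against 0.00440 to 0.0120% in clusters 2, 8 and 18. At 500 to 1000 UMIs lay 456 of the cluster 15 cells but 10 of the cells of clusters 2, 8 and 18. These 10 had medians of 13.6% and 13.2%, nearer to cluster 15 than the 7.77% and 19.8% of the 176 cells at 1000 to 2000 UMIs, so the comparison with these clusters at the lowest depths rests on few cells. Within cluster 15 the values changed little with depth. Pooled over mice, the median ribosomal share was 16.6% at 500 to 1000 UMIs, 17.9% at 1000 to 2000 and 16.5% at 2000 to 5000, and the median share of genes over 100 kb was 9.15%, 9.36% and 9.83%. In the 35 deep cells these medians were 21.4% and 7.13%.

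**Figure D4:**
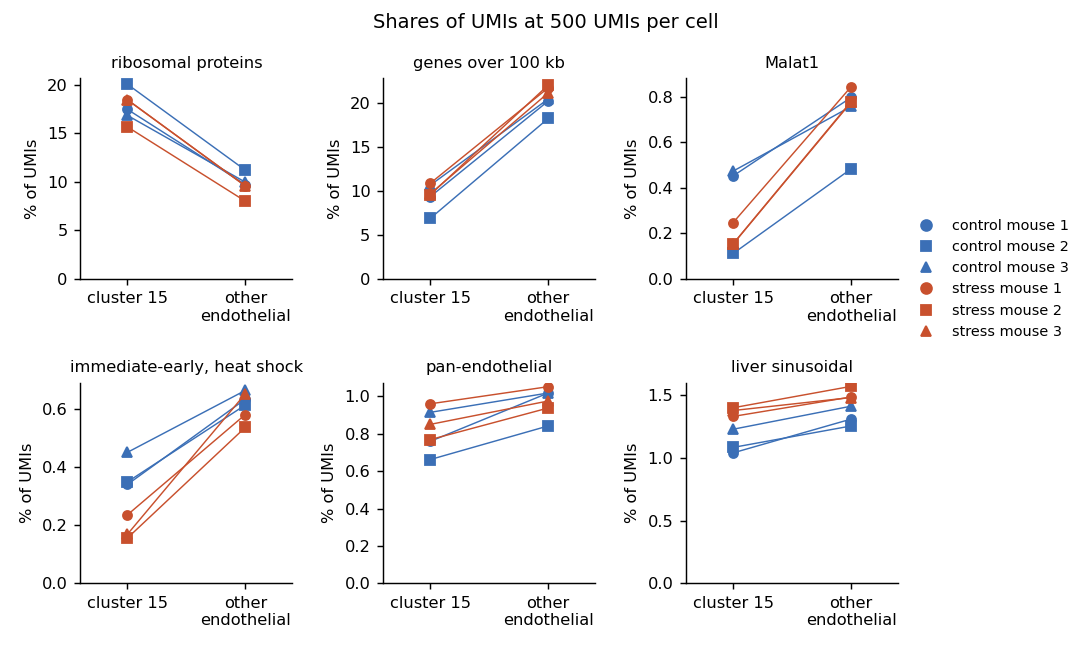
Share of UMIs at 500 UMIs per cell (y axes, percent, from 0) for 6 gene groups in cluster 15 and the other ECs (x axes), with a line joining the values of each mouse. In all 6 mice the ribosomal protein share is higher in cluster 15, and the shares of genes over 100 kb, of Malat1 and of immediate-early and heat shock genes are lower.

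Genes of acute cellular responses were lower than in the other ECs pooled, and on either side of cluster 2. Immediate-early and heat shock genes took 0.341%, 0.350% and 0.452% of the UMIs of cluster 15 in control mice 1 to 3 and 0.236%, 0.156% and 0.170% in stress mice 1 to 3, against 0.538 to 0.665% in the other ECs. The pooled value held cluster 8, at 1.12 to 1.80%. Cluster 2 had 0.322%, 0.335% and 0.349% for the controls and 0.201%, 0.213% and 0.268% after stress, and cluster 15 lay above it in 4 of 6 mice and below it in stress mice 2 and 3. Of 8 such genes at 200 CPM or more, 7 were lower in all 6 mice, among them the AP-1 subunit Fos (-1.29 ± 0.71), the phosphatase Dusp1 (-1.09 ± 0.57) and the transcription factor Egr1 (-1.09 ± 0.53). Of 5 glucocorticoid-responsive genes at 200 CPM or more, 1 was higher and 2 were lower in all 6 mice, and Mt2 (0.30 ± 0.28) and Klf9 (-0.31 ± 0.32) were mixed. Over all 1148 genes at this level, 26.4% were higher and 35.5% lower in all 6 mice, and the glucocorticoid counts lay near these shares. The glucocorticoid list took 0.213 to 0.696% of UMIs in cluster 15 and 0.280 to 0.563% in the other ECs, with mice on either side. Fkbp5, a chaperone that tunes the glucocorticoid receptor, was lower in all 6 mice with -1.11 ± 0.32, as was the kinase Sgk1 with -0.55 ± 0.46, while Mt1, a metal-binding protein, was higher in all 6 with 0.44 ± 0.33.

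Stress and control mice were then compared within cluster 15, with counts summed per mouse and edgeR's quasi-likelihood test, Benjamini-Hochberg adjusted. Of 5226 genes tested, 8 passed an adjusted p of 0.05 (0.153%), all higher in stress mice, and 767 had an unadjusted p under 0.05. Without stress mouse 1 the count was 39, and without control mouse 2 it was 5. The 8 genes were Cdk8, Cmss1, Gm19951, Lars2, Gphn, Camk1d, mt-Atp8 and Hpgd. Cdk8, a kinase of the mediator complex, was at 59.3, 33.1 and 81.1 CPM in control mice 1 to 3 and 999.7, 2437 and 2012 in stress mice 1 to 3, corresponding to 5.04 ± 0.43 on the log2 scale (SE, adjusted p = 3.6e-05). Lars2, the mitochondrial leucyl-tRNA synthetase, was at 460, 240 and 367 CPM in the controls against 3974, 7474 and 5927 in stress mice (4.09 ± 0.32, adjusted p = 1.4e-05). Gphn, the scaffold protein gephyrin, was at 608, 302 and 539 CPM against 5272, 8903 and 7454 (3.97 ± 0.31). These sums include the deep cells. Without called doublets the log2 fold change was 4.66 for Cdk8, 3.26 for Lars2 and 3.26 for Gphn, each still past the threshold. At equal depth Lars2 was at 1529, 423 and 716 CPM in control mice 1 to 3 and 7227, 10711 and 6575 in stress mice 1 to 3. For each of the 8 genes the control and stress mice did not overlap. These genes were chosen by the test, so this adds no separate support, and the share over all genes tested was not counted.

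Cmss1, Gm19951 and Camk1d, a calcium/calmodulin-dependent kinase, had log2 fold changes of 4.21, 4.20 and 3.65, and of 3.61, 3.68 and 3.20 without called doublets. These 6 genes form a list taken from earlier results on these same libraries, in which they were higher in all cell types of stress mice, so their direction here is not independent evidence. At equal depth they took 0.160 to 0.465% of the UMIs of cluster 15 in control mice and 2.60 to 4.07% in stress mice, and 0.206 to 0.235% and 1.23 to 1.82% of those of the other ECs. The 6 genes also passed with cells thinned to 500 UMIs, where they were the only calls among 1244 genes (0.482%). The other 2 calls were the mitochondrially encoded ATP synthase subunit mt-Atp8 and the prostaglandin-degrading enzyme Hpgd. mt-Atp8 was at 74.2, 53.8 and 62.0 CPM in control mice against 184.7, 255.7 and 287.2 under stress, which is 2.02 ± 0.32 on the log2 scale (adjusted p = 0.022). Hpgd was at 74.2, 107.5 and 109.7 CPM against 285.6, 371.9 and 298.6 (1.74 ± 0.30, adjusted p = 0.038), and without called doublets its fold change was 1.01 with an adjusted p of 0.49. In the other ECs mt-Atp8 was at 65.6, 62.4 and 47.0 CPM in control and 172.5, 203.3 and 210.2 in stress mice. Hpgd was there at 147.3, 136.0 and 131.8 CPM against 326.9, 274.7 and 230.2. Both rises were thus seen in the other ECs as well. Neither interaction was called (edgeR, 0.33 with adjusted p = 0.82, and 0.81 with adjusted p = 0.19).

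**Figure D5:**
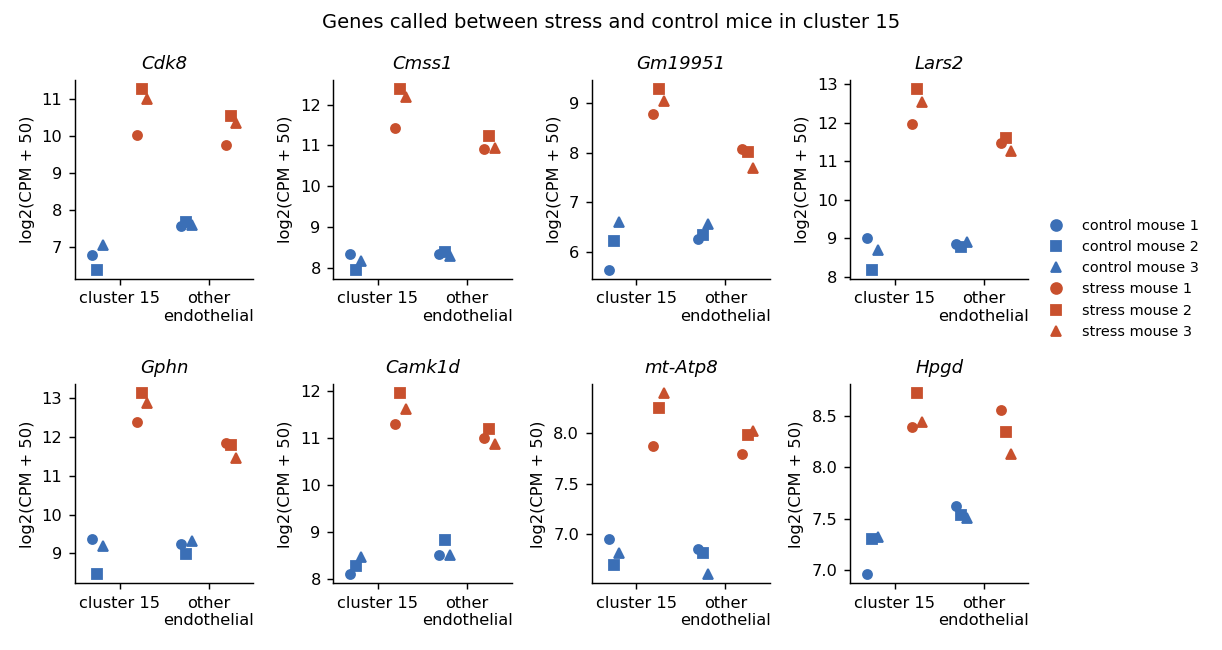
Levels of the 8 genes called between stress and control mice in cluster 15, as log2(CPM + 50) of the counts summed per mouse (y axes), in cluster 15 and in the other ECs (x axes), with color for the group and shape for the mouse. In cluster 15 the 3 stress mice lie above the 3 control mice in every panel.

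With the replicate number as a block, a pairing that the labels do not state, 192 genes passed (3.67%), 125 of them higher and 67 lower in stress mice. The count was 11 with that block in cells of at most 5000 UMIs, 20 in cells thinned to 500 UMIs and 10 without called doublets. These fits tested 3296, 1244 and 3996 genes, so their counts are not directly comparable with that on all 5226. In the block fit on all cells, 6 of 13 sinusoidal genes and 3 of 14 pan-endothelial genes were higher in stress mice and 3 of 12 immediate-early and heat shock genes were lower, where 2.39% and 1.28% of all genes were called higher and lower. Fos was lower in stress mice in 4 of the 5 fits with the block, with log2 fold changes of -2.07 in all cells and -2.13 in cells of at most 5000 UMIs. Ier2 and Egr1, the other immediate-early calls, passed in no second fit with the block. Of the sinusoidal and pan-endothelial calls, Ptprb passed in a second fit with the block and the others did not. In the same block fit the H22 tumor cell markers had a median log2 fold change of -1.08 over 5 genes, with Sox4 called lower, and their part in these calls was not tested. Without the block none of these 3 lists had a call, and the median log2 fold change of the sinusoidal list was 0.87, beside 0.01 over all genes. In cells thinned to 500 UMIs it was 0.49.

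Single measures of the cluster were compared by exact two-sided permutation tests over mice, for which 3 against 3 mice cannot give a p below 0.10. The median depth was 1053 ± 297 UMIs (SD, n = 3) in control and 1224 ± 205 in stress mice, which overlapped (exact permutation test, p = 0.50). Between mice of the same replicate number it was higher after stress each time, at 1072.5 against 905, 1142.5 against 858 and 1456.5 against 1395, and this was not tested. Mitochondrially encoded RNA made up 3.61%, 3.31% and 3.54% of the summed UMIs of the controls against 4.45%, 5.28% and 4.07% after stress, without overlap (exact permutation test, p = 0.10, adjusted over 8 measures 0.40). Without called doublets the groups overlapped (exact permutation test, p = 0.20). At equal depth they overlapped too, at 4.32%, 3.10% and 2.53% in controls and 4.78%, 5.20% and 4.20% after stress. The other ECs at equal depth had 2.35%, 3.11% and 2.41% in controls against 3.39%, 4.16% and 3.18% after stress, without overlap. The share of hemoglobin UMIs, resting on the 2 cells named above, was 0, 0 and 0.000477% for the controls against 0, 0.181 and 0.322% after stress (exact permutation test, p = 0.40). Outside cluster 15 the hemoglobin share ranged from 0.00260 to 0.00284% among controls and from 0.000666 to 0.00166% among stressed mice, the opposite order (exact permutation test, p = 0.10, adjusted 0.40). Without called doublets these ranges overlapped. They rest on few cells, since 1 tumor cell of control mouse 2 held 4966 hemoglobin UMIs, and in control mice 1 and 3 all but 40 of 4695 and 17 of 4679 hemoglobin UMIs of the other ECs lay in 5 and 3 cells. The share of cells with at least 3 pan-endothelial markers was 59.0% ± 13.1 and 67.5% ± 6.53 (exact permutation test, p = 0.40). The equal-depth shares of ribosomal protein messages, nuclear-retained RNA and genes over 100 kb also overlapped between the groups, at p = 0.70, 0.40 and 0.40 (exact permutation tests). The share of genes over 100 kb leaves out the 6 genes of the stress list. At equal depth those took 0.160 to 0.465% of cluster 15 UMIs in controls and 2.60 to 4.07% in stress mice. A share that includes them was not tested. In these tests p-values measure only the spread between these mice.

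Jam2 showed no call. It was at 289, 207 and 534 CPM among controls and 830, 445 and 556 among stressed mice, which overlapped, giving 0.89 ± 0.36 on the log2 scale (edgeR, adjusted p = 0.29). The value was 0.36 in thinned cells, 0.38 in cells of at most 5000 UMIs and 0.23 without called doublets.

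Whether stress changed cluster 15 differently from the other ECs of the same mice was tested as an interaction. Of 13204 genes tested, 105 passed (edgeR, adjusted p under 0.05), 74 with a higher stress effect in cluster 15 (0.56% of genes tested) and 31 with a lower one (0.235%). The count rested on single mice, since it was 295 when control mouse 3 was left out. Of the stress mice, leaving out the first gave 160, the second 21 and the third 31. With all cells thinned to 500 UMIs, 36 of the 105 passed again in the same direction, 34 higher and 2 lower. In that fit 0.641% of all genes passed, 0.588% higher and 0.0535% lower. With the replicate block on all cells 0.879% passed, 0.659% higher and 0.22% lower. Without called doublets, 11 of them passed. The calls that passed on all cells, on thinned cells, on cells of at most 5000 UMIs and without doublets were 6, namely Cdk8, Gm35533, Lcp1, Ctnnb1, Sptbn1 and Fos. Lcp1 rested on 12 UMIs of control mice, with none in their thinned cells, and passed in 12 of 21 alternatives. The 4 hemoglobin genes were among the 105, through the 2 cells named above and with at most 1 UMI in control mice, so no fold is given for them.

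Of the junction and adhesion list, none of 8 genes tested was called, with a median interaction of -0.06 beside 0.07 over all genes. The following single genes were chosen after their values were seen. Ctnnb1, the beta-catenin of cell junctions, had a log2 ratio between cluster 15 and the other ECs of -0.55, -0.38 and 0.12 in control mice 1 to 3 and 0.38, 0.81 and 0.92 in stress mice 1 to 3, an interaction of 1.23 ± 0.26 (edgeR, adjusted p = 0.0011). Ptprb, the endothelial receptor phosphatase VE-PTP, had -1.67, -1.65 and -0.68 in the controls against -0.47, -0.43 and -0.26 in stress mice (interaction 1.12 ± 0.24, adjusted p = 0.0019, and 0.28 without doublets). Sptbn1, a spectrin of the membrane skeleton, had 1.15 ± 0.25 and the bone morphogenetic protein receptor Bmpr2 0.99 ± 0.25, the latter not past the threshold without doublets (adjusted p = 0.39). Of the 14 pan-endothelial genes, Kdr and Ptprb passed on all cells, and Ptprb passed on thinned cells. In the fit on all cells the 6 H22 tumor cell markers had a median interaction of -0.54, with Sox4 called lower, and on thinned cells the 3 of them tested had -0.15 and no call. Their part in the calls was not tested.

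The 6 genes of the stress list all had a higher stress effect in cluster 15, with interactions of 1.14 for Camk1d to 2.08 for Cdk8 on the log2 scale. Of these, 5 passed on thinned cells and Gm19951 did not (edgeR, adjusted p = 0.22). Its interaction there was 1.86 ± 0.67, beside 1.82 ± 0.38 on all cells. In cells of at most 5000 UMIs, and also without called doublets, Cdk8 alone of the 6 passed, and the interaction of Gphn was 0.84 (adjusted p = 0.101) and 0.90 (adjusted p = 0.076). The immediate-early and heat shock genes had the reverse sign. Of 12, 7 had a lower stress effect in cluster 15 on all cells, namely Fos, Fosb, Egr1, Atf3, Ier2, Hspa1a and Hspa1b. Of all genes tested, 0.235% were called lower. Against clusters 2, 8 and 18 only, 4 genes in all were called lower, and with DESeq2 5 were. In neither of these fits did all 7 genes therefore pass. Fos had log2 ratios of -0.69, -0.14 and -0.43 in control mice and -0.998, -1.65 and -2.45 under stress, an interaction of -1.43 ± 0.25 (adjusted p = 1.6e-05). On thinned cells Fos and Hspa1a passed. Egr1 had an interaction of -1.33 on all cells, but -0.12 in cells of at most 5000 UMIs (adjusted p = 0.95) and -0.19 without called doublets (adjusted p = 0.90). The other ECs pooled here differ among themselves, since the share of this list in cluster 2 was also lower after stress, without overlap, while that in cluster 8 was 1.12 to 1.15% in the controls and 1.34 to 1.80% after stress. The difference from cluster 2 alone was not tested. The neutrophil genes S100a8, S100a9 and Retnlg also had a lower stress effect on all cells. With the replicate block Retnlg alone was called, and on thinned cells none of the 2 neutrophil genes tested was.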

How the data were processed

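Single-cell RNA-seq of liver tumors from 3 control and 3 stressed mice was analysed. The deposited values are raw UMI counts per gene and barcode, made by the authors with Cell Ranger (9.0.0 for control, 7.1.0 for stress, per the file headers) on build mm10. Whether intronic reads were counted is not given in the sources used here. The authors removed doublets with Scrublet, kept cells with at least 200 genes and at most 20% mitochondrial reads, integrated with Harmony and clustered in Seurat. Cluster and cell type came from their deposited cell table, and the deposited scores of that table were not used. Members and gene lists were chosen with earlier results of these data known.

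Cells were thinned at random to 500 UMIs, which left out no EC, and summed per mouse. Ratios are log2 of CPM + 50 between cluster 15 and the other ECs. The genes named were the 15 highest and 10 lowest ratios on the same side in all 6 mice with at least 200 CPM, and up to 10 called genes per direction with non-overlapping groups. Some of these genes are not reported here. Gene spans came from GENCODE M21. Of 34099 genes, 32061 matched by identifier. Summed counts were fitted with edgeR 4.0.16 (TMM, filterByExpr, quasi-likelihood test), with DESeq2 1.42.0 as an alternative. Scrublet was rerun per library in scanpy 1.11.5 and marked 4.61% of annotated cells. On simulated counts with known changes, the contrast fit on 4887 genes recovered 87.2% of changes of 2 on the log2 scale and 19.3% of changes of 1, and the interaction fit on 12941 genes 43.9% and 11.3%.

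Replicate numbers come from the library names, which state no pairing. Deviations from the group means correlated at 0.33, 0.26 and 0.27 between same-numbered mice, so the numbers were taken as pairs, and fits with the replicate number as a block stand beside the main ones. The correlations come from the same counts that the block fits test, so they give no separate support for a pairing. Between differently numbered mice the correlations ran from -0.39 to 0.12. In cells of at most 5000 UMIs they were 0.27, 0.40 and -0.22 for the same numbers and -0.53 to 0.38 for different ones. Same-numbered mice thus did not stand apart in these cells.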

Additional observations from a re-analysis of the deposited data

Results flagged for a closer look

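The stress effect differed between cluster 15 and the other ECs in single genes by the interaction test. Among genes with non-overlapping mice and more than 3 UMIs in each group, the largest higher effects (log2 interaction) were 2.10 for Csf2rb, 2.08 for Cdk8, 2.02 for Peg10, 1.82 for Gm19951, 1.74 for Gm35533, 1.73 for Lcp1, 1.72 for Ppp1r9b, 1.67 for Gm56936 and 1.66 for Pea15a. The largest lower effects were -2.65 for Ccl3, -2.17 for Cdh6, -2.12 for Fbxl12, -2.06 for Mapk8ip3, -1.48 for Hilpda, -1.43 for Riok1, -1.43 for Fos, -1.37 for Nr6a1 and -1.33 for Egr1. Tpx2 and Stra6 were also called, with 0 UMIs in control mice and 2 UMIs in stress mice respectively, and no fold is given for them. Of these genes Cdk8, Gm35533, Lcp1 and Fos also passed on thinned cells, on cells of at most 5000 UMIs and without doublets. Lcp1 was at 0 CPM in the thinned cluster 15 cells of all 3 control mice, so no fold is given for it there, and it passed in 12 of 21 alternatives.

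Barcodes without a cell type in the authors' table, 2580 in all, held 28989 hemoglobin UMIs, against 3739 in cluster 15. A hemoglobin UMI was found in 76 of these barcodes, but all but 62 of the UMIs lay in 17 barcodes with at least 20 each. Barcodes with at least 20 were found in all 6 mice.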

How the results depend on the processing

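The 8 calls between stress and control mice became 56 with DESeq2 (35 higher, 21 lower) and 234 without a filter on low counts (164 higher, 70 lower). With the replicate number as a block there were 192 calls (125 higher, 67 lower), and 20 with the block in cells thinned to 500 UMIs. Leaving out 1 mouse at a time gave 5 to 39 calls. The 105 differences in stress effect became 46 with DESeq2, 48 in thinned cells, 62 without called doublets, 38 in cells of at most 5000 UMIs and 22 when those were thinned. Against clusters 2, 8 and 18 only there were 32 (28 higher, 4 lower), and 29 thinned (25 higher, 4 lower). With the replicate block there were 116, and with it 17 in thinned cells, 20 in cells of at most 5000 UMIs, 35 when those were thinned and 52 without called doublets. Leaving out 1 mouse gave 21 to 295, among them 160 without stress mouse 1 and 31 without stress mouse 3. The median of all differences in stress effect was 0.07 on the log2 scale and 0.30 in thinned cells.

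Of 390 single-gene values for differences in stress effect under alternatives, 192 stayed past the threshold in the same direction, 194 no longer passed and 4 changed sign. The latter were Cdh6 without called doublets (7.94, and 8.02 with the block) and Egr1 in cells of at most 5000 UMIs thinned to 500 (0.0637, and 0.0874 with the block), and none of these 4 passed the threshold. Of 168 values for the stress contrast, 147 stayed and 21 no longer passed.

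Stress minus control in UMIs per cell was 171 for the median and -1021 for the mean over cells. It was 54.8 to 342 with 1 mouse left out. The ribosomal difference was -0.599 percentage points, 0.102 as the median over cells not thinned and -1.24 to 0.366 with 1 mouse left out, with 0.331 without stress mouse 2. With 1 mouse left out, the difference ranged from 0.774 to 1.38 points for mitochondrial RNA, 0.0906 to 0.252 for hemoglobin, -0.00179 to -0.00129 for hemoglobin outside cluster 15, -0.301 to -0.107 for nuclear-retained RNA, 0.0405 to 1.92 for long genes and 4.02 to 16.1 for cells with 3 markers. The cause of these shifts was not tested. The Hbb-bt share could not be compared, because control mice had no beta-chain UMI in cluster 15. The shallow cells limit single genes, since 1 UMI in a cell of 500 is a large step.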
